A study of Homo sapiens with 12 samples.

Results

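MCL1, BAK1, BCL2L11, BID, BAD, PMAIP1, BBC3, BIRC2, BIRC3 and XIAP are 10 genes of the BCL2 family and of the inhibitor of apoptosis (IAP) family. They were taken by Ensembl identifier from a table of 12584 genes, and all 10 were in the table and passed the filter on low counts in every comparison. The study asked which genes change when the homeobox transcription factor HOXC6 is overexpressed in non-small cell lung cancer cells. A549 and PC9, established human lung adenocarcinoma lines, stably carried a lentiviral vector with HOXC6 (A549-HOXC6 and PC9-HOXC6) or the control vector (A549-NEO and PC9-NEO), and each of the 4 groups had 3 poly(A) RNA-seq libraries. The cells of all 4 groups had been put under neomycin after the vector was added, and A549 was kept in RPMI and PC9 in DMEM, so line and medium cannot be told apart. The labels call the replicates independent but do not say whether they came from separate infections, so the p-values measure the spread between these libraries.

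The total count over the genes in the table ran from 1212053 to 3286577 per library, and 3 counts, the floor of detection, equalled 0.913 to 2.55 CPM (counts per library, put on one scale for all libraries). HOXC6 itself was not analysed here, so the labels of the vectors could not be checked on it. CDKN2A, which is deleted in A549, had no more than 1 count in any A549 library and 334 to 428 CPM in the PC9 libraries. The epithelial markers EPCAM, CDH1, KRT18 and KRT7, 4 of 6 listed, summed to 7820 to 11700 CPM, most of it from KRT18 and KRT7. EPCAM was low in A549, with means of 5.78 CPM in A549-NEO and 5.3 in A549-HOXC6. Its means in PC9-NEO and PC9-HOXC6 were 196 and 156 CPM. The endothelial marker VWF did not exceed 2.13 CPM, and the 4 fibroblast markers summed to 19.5 to 76.7 CPM. The immune markers PTPRC, CD68 and LYZ summed to 8.26 to 10.8 CPM in A549-NEO against 14.5 to 24.0 in A549-HOXC6, with LYZ at 0 in every library, and their part in the results was not tested. A549-HOXC6 replicate 3 stood apart from replicates 1 and 2 of its group (chi-square per degree of freedom 4.41 and 3.23, against 1.68 between the other two).

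Apoptosis through mitochondria is set by binding among BCL2 family proteins. Guardians such as MCL1 hold back the effectors BAX and BAK1, which open the outer mitochondrial membrane, while the BH3-only proteins BCL2L11 (BIM), BID, BAD, PMAIP1 (NOXA) and BBC3 (PUMA) bind guardians and in part engage the effectors directly. Downstream, XIAP binds and inhibits caspases, and BIRC2 (cIAP1) and BIRC3 (cIAP2) are ubiquitin ligases of TNF receptor signalling. BIRC3 is also a known target of NF-kB.

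BIRC3 and BIRC2 are neighbours on the forward strand of chromosome 11. In the GENCODE annotation of GRCh37, BIRC3 (ENSG00000023445) occupies 102188215 to 102210134 and BIRC2 (ENSG00000110330) 102217942 to 102249401, with 7807 bp between them. BBC3 (ENSG00000105327) lies on the reverse strand of chromosome 19 from 47724079 to 47736023. Of the other members, BAD (ENSG00000002330) lies on chromosome 11 from 64037302 to 64052176, BAK1 (ENSG00000030110) on chromosome 6 from 33540324 to 33548070 and MCL1 (ENSG00000143384) on chromosome 1 from 150533371 to 150552214, all on the reverse strand. XIAP (ENSG00000101966) lies on the forward strand of chromosome X from 122993562 to 123047822. The 250 bases upstream of the RefSeq start of these 3 genes are shown because they are the 3 members that fell in A549-HOXC6. They come from GRCh38.p14, at chr11:102317234-102317483 for BIRC3, chr11:102346964-102347213 for the first of 2 BIRC2 starts and chr19:47232668-47232917 for BBC3, and each is written 5′ to 3′ on the strand of its gene. Capitals mark TAAT on either strand (ATTA on the one shown), the core that homeodomains bind, and 10-base matches to the NF-kB consensus.
BIRC3: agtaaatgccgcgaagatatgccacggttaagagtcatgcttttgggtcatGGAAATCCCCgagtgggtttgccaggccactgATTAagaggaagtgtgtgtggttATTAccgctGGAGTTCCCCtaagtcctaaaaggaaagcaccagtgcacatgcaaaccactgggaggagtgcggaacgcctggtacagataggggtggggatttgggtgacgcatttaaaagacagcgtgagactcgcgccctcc
BIRC2: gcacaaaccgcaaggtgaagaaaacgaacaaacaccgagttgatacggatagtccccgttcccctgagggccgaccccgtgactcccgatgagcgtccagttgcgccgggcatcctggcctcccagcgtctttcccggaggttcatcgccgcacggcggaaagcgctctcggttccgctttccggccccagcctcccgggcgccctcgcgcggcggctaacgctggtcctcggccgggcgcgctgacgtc
BBC3: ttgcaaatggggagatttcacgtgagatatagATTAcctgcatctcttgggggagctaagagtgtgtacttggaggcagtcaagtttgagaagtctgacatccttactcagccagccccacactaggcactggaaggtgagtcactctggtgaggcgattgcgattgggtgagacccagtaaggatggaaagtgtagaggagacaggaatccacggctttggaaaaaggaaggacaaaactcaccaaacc
The BIRC3 window held 2 NF-kB matches, which began 199 and 135 bases before the start, and 2 TAAT matches at 167 and 144 bases. Neither was in the window of either BIRC2 start. The BBC3 window held 1 TAAT match at 218 bases and no NF-kB consensus match. Among 35116 RefSeq promoter windows of this length, 10% held the NF-kB consensus and 47.4% TAAT. These are matches of letters and were not tested as sites of binding.

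The first comparison set A549-NEO against PC9-NEO to give the level of each gene before HOXC6 was added. BIRC3 and BBC3 were higher in A549-NEO, and BAD and BAK1 were higher in PC9-NEO. These 4 of 10 members passed an adjusted p of 0.05 in the quasi-likelihood test of edgeR, with Benjamini-Hochberg adjustment over all genes, against 71.0% of all 9229 genes tested. Groups did not overlap for 5 of 10 members and for 74.4% of all genes. Levels below are CPM after TMM normalization over the 12 libraries, and fold changes are from the fit. In bulk RNA, fewer expressing cells and less RNA per cell cannot be told apart.

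BIRC3 had 88.2, 118 and 103 CPM in A549-NEO against 8.61, 12.6 and 16.9 in PC9-NEO. Every A549-NEO library lay above every PC9-NEO library, a 7.85-fold higher level (95% interval 6.03 to 10.2, adjusted p = 8.84e-18). BBC3 had 214, 236 and 193 CPM in A549-NEO and 48.9, 48.7 and 40.2 in PC9-NEO. The groups did not overlap, and the level was 4.66-fold higher in A549-NEO (95% interval 3.83 to 5.67, adjusted p = 6.30e-18). BAD, a BH3-only protein that binds BCL2 and BCL2L1 when it is not phosphorylated, had 33.5, 39.5 and 44.4 CPM in A549-NEO and 73.7, 83.9 and 87.6 in PC9-NEO. It was 2.11-fold lower in A549-NEO (log2 difference -1.08, adjusted p = 1.43e-07). BAK1 had 19.5, 22.1 and 23.2 CPM in A549-NEO and 36, 33.7 and 43.6 in PC9-NEO, a log2 difference of -0.82 (adjusted p = 1.07e-04).

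The other 6 members did not pass the test. MCL1 had 252 to 254 CPM in A549-NEO and 225 to 241 in PC9-NEO, a log2 difference of 0.11 with a 95% interval of -0.08 to 0.30. XIAP and BID had log2 differences of -0.01 (95% interval -0.30 to 0.29) and 0.01 (-0.27 to 0.28). PMAIP1 had the widest interval, -0.01 to 1.14 around a log2 difference of 0.57, and its PC9-NEO libraries held 29, 35 and 12 counts. It passed without the filter on low counts (adjusted p = 0.0476), with the GC and length correction described below (0.0453), and without PC9-NEO replicate 1 or 2 (log2 differences of 0.75 and 0.89). BCL2L11 and BIRC2 had log2 differences of 0.27 (-0.07 to 0.61) and 0.24 (-0.10 to 0.57).

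**Figure D1:**
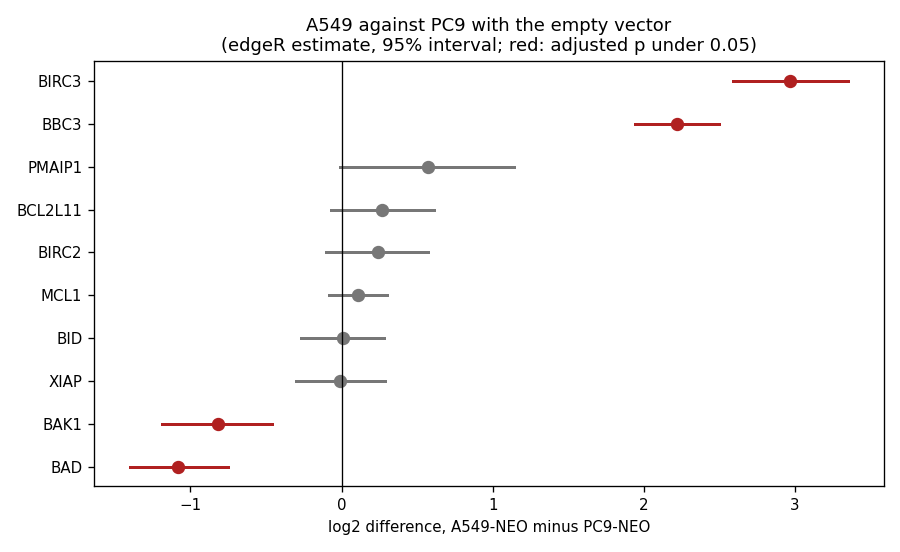
Log2 difference of each gene between A549-NEO and PC9-NEO (x axis) with its 95% interval, 3 libraries a group. BIRC3 at 2.97 and BBC3 at 2.22 lie to the right, BAK1 at -0.82 and BAD at -1.08 to the left, and the intervals of the other 6 genes (grey) include 0.

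Levels of different genes were compared per length, as CPM per kilobase of the canonical transcript. In A549-NEO the order began with BBC3 (116 ± 11.4), MCL1 (64.0 ± 0.279), BAD (42.1 ± 5.91), BID (29.5 ± 4.10) and BIRC3 (15.0 ± 2.19; SD, n = 3), each above the next in every library. BIRC2, BAK1, PMAIP1, BCL2L11 and XIAP followed between 10.6 and 6.68, and each overlapped with the next. In PC9-NEO the order began with BAD (88.0 ± 7.77) and MCL1 (59.1 ± 2.02), which did not overlap, BBC3 came after BID at 24.9 ± 2.69 and overlapped with it, and BIRC3 came last at 1.85 ± 0.606. In A549-HOXC6, BAD (66.6 ± 25.2), BBC3 (62.5 ± 18.0) and MCL1 (60.2 ± 5.19) overlapped at the top, and BIRC2 and BIRC3 were last at 5.39 ± 1.0 and 5.38 ± 1.23. The order in PC9-HOXC6 opened with the same 5 genes as in PC9-NEO, from BAD at 93.5 ± 10.7 to BAK1 at 18.3 ± 1.84, and ended with BIRC3 at 1.37 ± 0.0366.

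**Figure D2:**
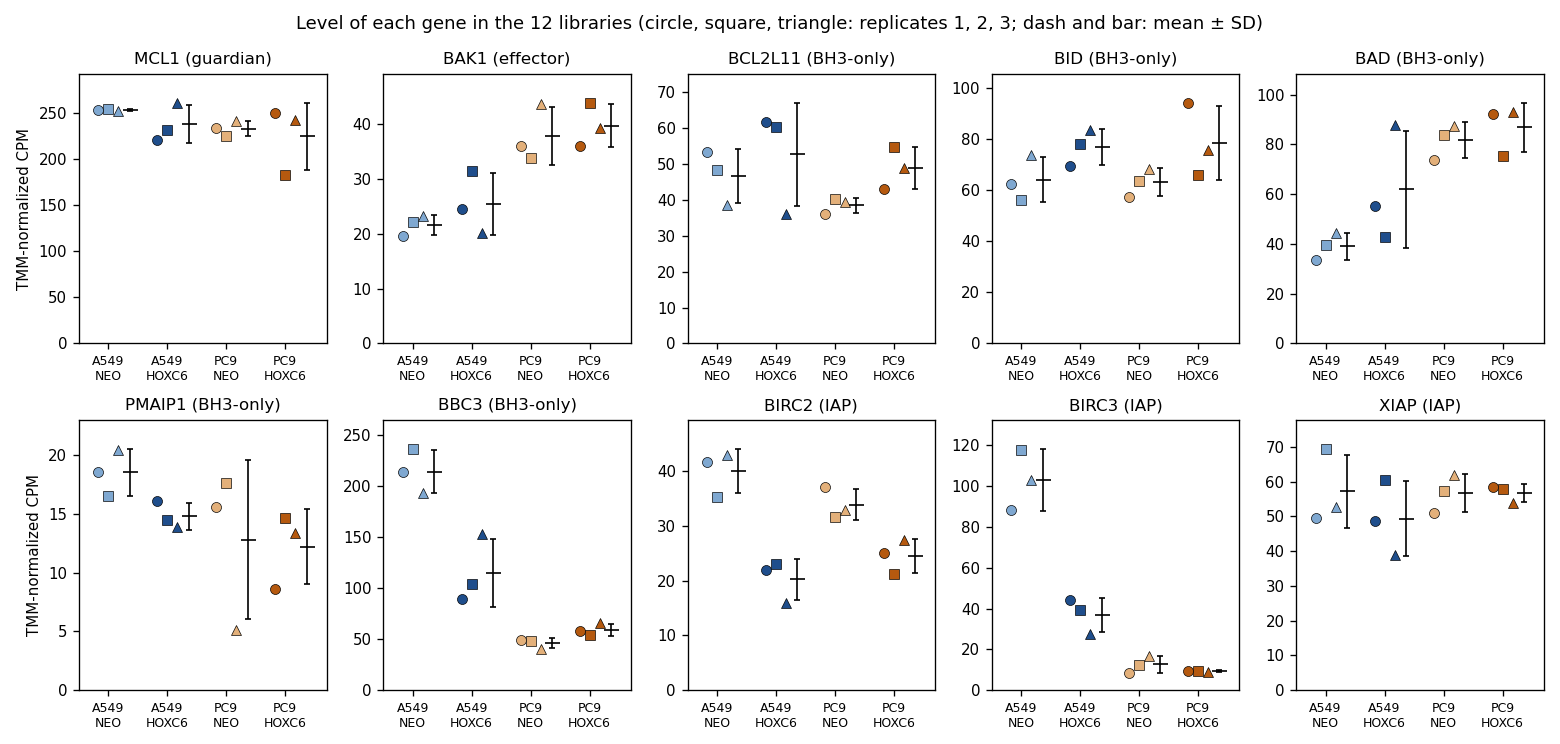
TMM-normalized CPM (y axis, from 0) of the 10 genes in the 12 libraries, by group, with the mean and SD of 3 libraries beside the points. The A549-HOXC6 libraries of BBC3, BIRC2 and BIRC3 lie below all A549-NEO libraries, and MCL1 stays between 183 and 261 in all 12.

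In A549, BIRC3, BIRC2 and BBC3 fell with HOXC6 and BAD rose, while MCL1, BAK1, BCL2L11, BID, PMAIP1 and XIAP did not pass the test. These 4 of 10 members compare with 39.6% of all 8771 genes tested at an adjusted p under 0.05, so the share of members called was that of the table as a whole. By direction, 3 members were lower (20.7% of all genes) and 1 was higher (18.9%). With the fold change criterion of the study's methods, a log2 fold change above 1 or below -1, 2 of 10 were called (7.21% of all genes). The median absolute log2 fold change was 0.31 over the members and 0.334 over all genes.

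BIRC3 had the largest log2 fold change of the members before, but not after, a correction for GC content and length. Its A549-NEO libraries had 253, 294 and 261 counts and its A549-HOXC6 libraries 121, 46 and 52, which is 88.2, 118 and 103 against 44.2, 39.2 and 27.7 CPM. All 3 A549-HOXC6 libraries lay below the A549-NEO libraries, a 2.82-fold lower level (log2 fold change -1.49, standard error 0.158, adjusted p = 2.54e-08). With each library left out in turn, the log2 fold change ran from -1.70 to -1.30. With a correction of each library for the GC content and length of genes it was -0.73, less than in the uncorrected fit but past the threshold (adjusted p = 3.36e-05). Exons of BIRC3 share 126 bp with a gene on the opposite strand, and the strand setting of the counting is not stated.

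BIRC2, the neighbour of BIRC3, had 41.8, 35.4 and 42.9 CPM in the A549-NEO libraries against 21.9, 23.0 and 16.0 in those of A549-HOXC6. The groups did not overlap, and the level was 2.04-fold lower (log2 fold change -1.03, standard error 0.193, adjusted p = 1.25e-04). The GC and length correction brought it to -0.45 and below the threshold (adjusted p = 0.0600). XIAP, the third IAP among the members, had 49.5, 69.3 and 52.7 CPM against 48.6, 60.4 and 38.9. Its groups overlapped, with a log2 fold change of -0.28 (95% interval -0.62 to 0.07, adjusted p = 0.194), and the correction turned its sign, to 0.35 (adjusted p = 0.0621).

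BBC3, which encodes PUMA, was the BH3-only gene that fell. It had 214, 236 and 193 CPM in the A549-NEO libraries against 89.5, 104 and 153 in those of A549-HOXC6, without overlap. This was a 1.92-fold lower level (log2 fold change -0.94, standard error 0.131, adjusted p = 2.42e-06). A549-HOXC6 replicate 3 was the closest to the control libraries, and without it the log2 fold change was -1.21. Unlike for BIRC3 and BIRC2, the GC and length correction left a larger change, -1.14 (adjusted p = 1.77e-12).

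BAD had 33.5, 39.5 and 44.4 CPM in the A549-NEO libraries against 55.2, 42.6 and 87.9 in those of A549-HOXC6. Replicate 2 of A549-HOXC6 lay below the highest control library, so the groups overlapped although the test passed (log2 fold change 0.65, standard error 0.184, adjusted p = 0.00616). The call rested on single libraries: without A549-HOXC6 replicate 3 the log2 fold change was 0.35 (adjusted p = 0.0972), and without A549-NEO replicate 1 it was 0.54 (adjusted p = 0.0546). With the GC and length correction it was 0.42 (adjusted p = 0.0282). Exons of BAD share 404 bp with GPR137 on the opposite strand.

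The other BH3-only genes had smaller differences. BCL2L11, whose protein BIM binds all guardians, had 53.3, 48.3 and 38.5 CPM in the A549-NEO libraries against 61.7, 60.4 and 36.2 in those of A549-HOXC6, a log2 fold change of 0.13 (95% interval -0.23 to 0.50), and its exons share 727 bp with the opposite-strand gene MIR4435-2HG. BID, which caspase 8 cleaves to link death receptors to mitochondria, had 56.4 to 73.9 against 69.4 to 83.6 CPM and a log2 fold change of 0.21 (-0.06 to 0.49). PMAIP1 had 18.5, 16.5 and 20.4 CPM against 16.1, 14.5 and 13.9. Its groups did not overlap, as for 4 of 10 members and 50.3% of all genes, but the test did not pass (log2 fold change -0.34, 95% interval -0.83 to 0.14, adjusted p = 0.256).

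The guardian MCL1 had 253, 254 and 252 CPM in the A549-NEO libraries against 221, 232 and 261 in those of A549-HOXC6. The groups overlapped, and the interval of its log2 fold change of -0.13 ran from -0.32 to 0.06, which covers levels from 0.803 to 1.04 of the control. The effector BAK1 had 19.5 to 23.2 against 20.2 to 31.5 CPM and a log2 fold change of 0.16 (-0.27 to 0.60).

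In PC9, BBC3 was the single member past the threshold, and it was higher with HOXC6, the direction opposite to A549. This 1 of 10 compares with 27.5% of all 8419 genes tested at an adjusted p under 0.05. No member was past the threshold downward with edgeR (14.2% of all genes were), where 1 was at an unadjusted p under 0.05, nor with DESeq2. With the fold change criterion as well, 0 of 10 were called (4.53% of all genes), 4 being past an unadjusted p of 0.05. BBC3 had 48.9, 48.7 and 40.2 CPM in the PC9-NEO libraries against 58.1, 54.2 and 65.7 in those of PC9-HOXC6. The groups did not overlap, and the level was 1.32-fold higher (log2 fold change 0.40, standard error 0.140, adjusted p = 0.0313). The call was not stable: the adjusted p was 0.143 with DESeq2, 0.377 with the GC and length correction (log2 fold change 0.19), and up to 0.185 when PC9-NEO replicate 3, PC9-HOXC6 replicate 1 or PC9-HOXC6 replicate 3 was left out.

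BIRC2 had 37.1, 31.6 and 33.0 CPM in the PC9-NEO libraries against 25.0, 21.2 and 27.4 in those of PC9-HOXC6. All PC9-HOXC6 libraries lay lower (3 of 10 members and 39.8% of all genes had groups without overlap), and the log2 fold change of -0.43 did not pass (95% interval -0.79 to -0.06, adjusted p = 0.0747). Scaled by library size only it was -0.51 and did (adjusted p = 0.0316). BIRC3, with 16, 25 and 40 counts in PC9-NEO against 20, 13 and 30 in PC9-HOXC6, had 8.61 to 16.9 against 9.13 to 9.60 CPM. Its log2 fold change of -0.46 had an interval of -1.07 to 0.16. The uncorrected A549 estimate of -1.49 lies outside it, but the A549 interval of -1.82 to -1.17 ends close to it. The difference between the lines is tested below. XIAP had 51.1, 57.3 and 61.8 CPM against 58.5, 57.8 and 53.9, a log2 fold change of -0.01 (-0.28 to 0.26). With the GC and length correction it was 0.48 and past the threshold (adjusted p = 0.00855), so the call on XIAP depends on that choice.

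Among the BH3-only genes, BCL2L11 had 36, 40.2 and 39.4 CPM in the PC9-NEO libraries against 43.2, 54.9 and 49.0 in those of PC9-HOXC6. Its PC9-HOXC6 libraries all lay higher, with a log2 fold change of 0.34 (95% interval 0.03 to 0.64, adjusted p = 0.0967). BID had 57.6, 63.8 and 68.6 CPM against 94.5, 65.9 and 75.8 and a log2 fold change of 0.33 (0.06 to 0.59, adjusted p = 0.0632). BID passed without the filter on low counts (adjusted p = 0.0401), and without PC9-HOXC6 replicate 2, where it was 0.42. Intervals for single genes that leave out 0 while the adjusted p misses the threshold are not calls, since they take no account of the number of genes tested. BAD (log2 fold change 0.11, interval -0.13 to 0.34), BAK1 (0.05, -0.27 to 0.38), MCL1 (-0.03, -0.21 to 0.15) and PMAIP1 (-0.03, -0.72 to 0.66) were closer to 0.

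**Figure D3:**
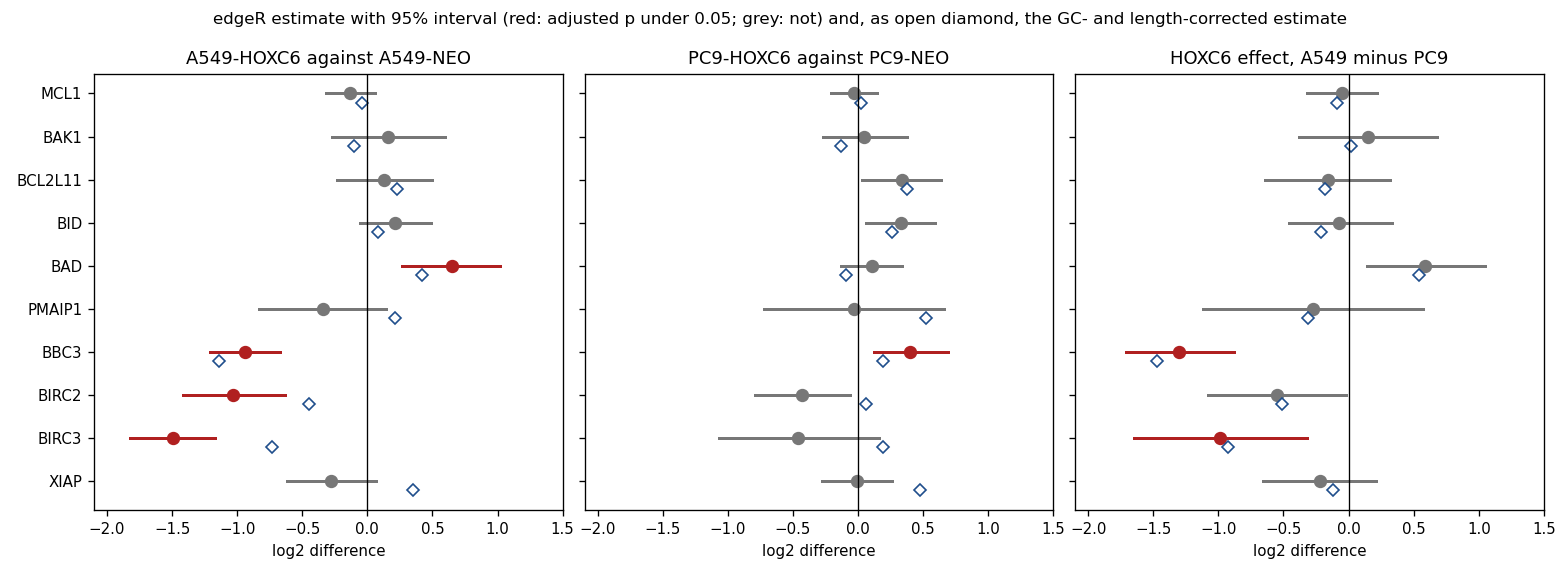
Log2 difference of each gene (x axis) with its 95% interval for HOXC6 against NEO in A549 and in PC9, and for the difference of these effects. BBC3 lies at -0.94 in A549 and 0.40 in PC9, and open diamonds give the estimate with the GC and length correction, which moves BIRC2 in A549 from -1.03 to -0.45.

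Whether the HOXC6 effect differed between the lines was tested as an interaction over all 12 libraries. BBC3 and BIRC3 passed, both with the lower change in A549, which is 2 of 10 members against 19.4% of all 9229 genes in either direction and 8.44% in the lower one. With the fold change criterion 1 of 10 was called, against 5.15%. For BBC3 the effect in A549 lay 1.30 below that in PC9 on the log2 scale, a difference of -1.30 (95% interval -1.71 to -0.88, adjusted p = 8.30e-06). It ran from -1.58 to -1.10 with each library left out and was -1.47 with the GC and length correction. For BIRC3 the difference was -0.99 (95% interval -1.65 to -0.32, adjusted p = 0.0295) and -0.93 after that correction (adjusted p = 0.0236). It missed the threshold in 7 of 12 cases when 1 library was dropped, namely without A549-NEO replicate 2, A549-HOXC6 replicate 3, PC9-NEO replicate 1 or 2, or any of the 3 PC9-HOXC6 libraries, where it ran from -1.02 to -0.79. No member had a higher change in A549 at an adjusted p under 0.05 with edgeR or DESeq2, and 1 did at an unadjusted p. That was BAD, whose effect was higher in A549 by 0.59 (95% interval 0.14 to 1.05, adjusted p = 0.0576). It passed with the GC and length correction (0.54, adjusted p = 0.0344) and without the filter on low counts (adjusted p = 0.0225). BIRC2 had a difference of -0.55 (-1.08 to -0.02, adjusted p = 0.140), so its change was not shown to differ between the lines.

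The members span a wide range of GC content, and over all genes the difference between HOXC6 and NEO libraries moved with it. Whether this trend came from HOXC6 or from the preparation of the libraries was not tested. Between log2 fold change and transcript GC content, Spearman's rho was 0.530 over 8712 genes in A549 and 0.527 over 8360 genes in PC9, a description across genes that share libraries. BIRC3 (35.8%), PMAIP1 (36.7%), BIRC2 (37.4%) and XIAP (38.9%) are the members lowest in GC. All 4 had negative log2 fold changes in A549, where BIRC3 and BIRC2 passed the test. In PC9 none of them passed, with BIRC3 at -0.46, BIRC2 at -0.43, PMAIP1 at -0.03 and XIAP at -0.01. MCL1, BCL2L11 and BID lie between 45.1 and 48.0%, near the median of 48.7%. BAK1 (58.6%), BAD (65.8%) and BBC3 (69.7%) are the highest, and their log2 fold changes were positive except for that of BBC3 in A549. Those of BAK1 in A549 and PC9 (0.16 and 0.05) and of BAD in PC9 (0.11) did not pass. When smooth trends on GC and length were removed from each library, BBC3 and BIRC3 were lower and BAD higher in A549-HOXC6. No member was then lower in PC9-HOXC6. XIAP was higher there (log2 fold change 0.48), and BBC3 no longer passed (0.19). The part of GC content in the uncorrected differences of the IAP genes was not tested beyond this correction.

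**Figure D4:**
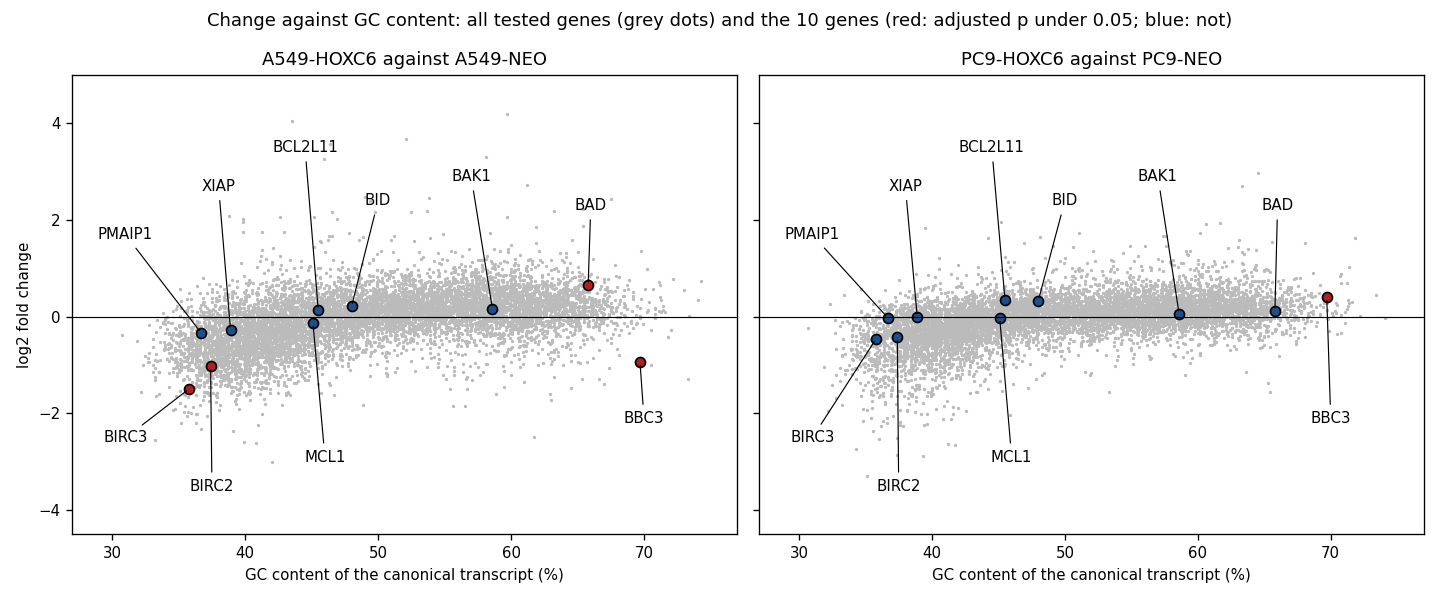
Log2 fold change (y axis) against GC content of the canonical transcript in percent (x axis) for all tested genes (grey) and the 10 genes in A549 and PC9. BIRC3 and BIRC2 lie at the low-GC end with the grey cloud below 0, and BBC3 in A549 lies below 0 at 69.7% GC.

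Ratios of counts within a library do not depend on the scaling between libraries. BBC3 had 0.846, 0.929 and 0.769 counts per MCL1 count in A549-NEO against 0.406, 0.447 and 0.587 in A549-HOXC6. In PC9 the ratios were 0.209, 0.217 and 0.167 in the PC9-NEO libraries against 0.233, 0.296 and 0.271 in those of PC9-HOXC6. The HOXC6 libraries thus lay wholly below the controls in A549 and wholly above them in PC9, and the lowest A549-HOXC6 ratio remained above the highest PC9-HOXC6 ratio. BBC3 and MCL1 differ in GC content (69.7 and 45.1%), for which this ratio is not corrected. With the GC and length correction the log2 fold change of BBC3 in PC9 was 0.19 and did not pass. BIRC3 per XIAP, a pair of IAP genes of like GC content, was 1.78, 1.71 and 1.95 in the A549-NEO libraries against 0.910, 0.648 and 0.712 in those of A549-HOXC6, without overlap. In PC9 that ratio was 0.168, 0.219 and 0.274 against 0.164, 0.165 and 0.169, and the groups overlapped. BIRC3 per BIRC2 was 2.11, 3.34 and 2.39 in the A549-NEO libraries against 2.02, 1.70 and 1.73 in those of A549-HOXC6. In PC9 it averaged 0.381 ± 0.141 for PC9-NEO against 0.389 ± 0.0576 for PC9-HOXC6 (SD, n = 3). An exact permutation test of 3 against 3 libraries cannot go below a two-sided p of 0.10, so these ratios are given as values.

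**Figure D5:**
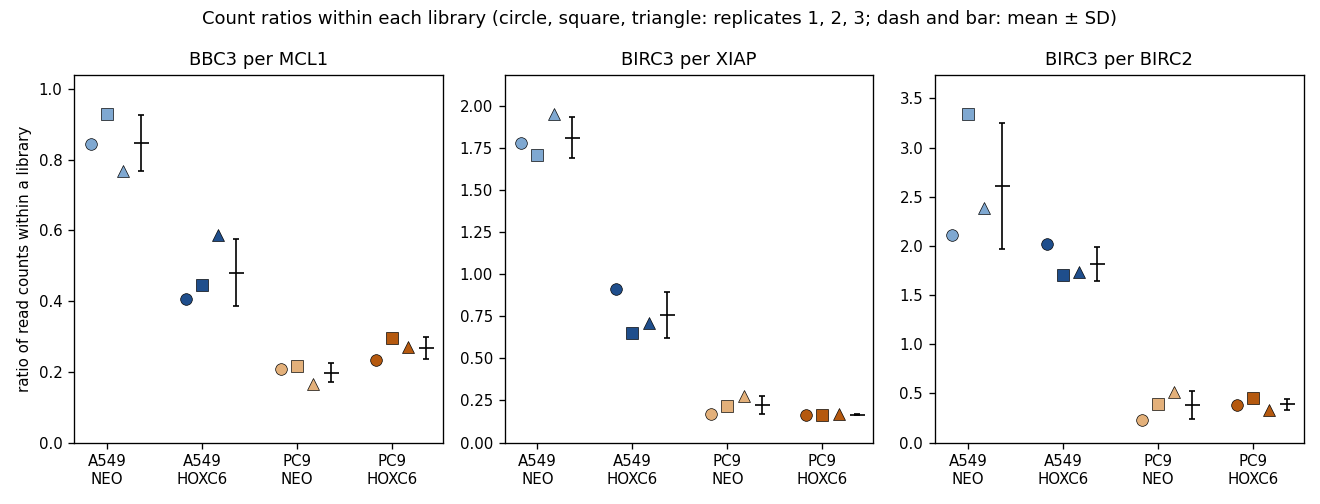
Ratio of read counts within each library (y axis, from 0) for BBC3 per MCL1, BIRC3 per XIAP and BIRC3 per BIRC2 in the 4 groups, with the mean and SD of 3 libraries. BBC3 per MCL1 averages 0.848 in A549-NEO, 0.480 in A549-HOXC6, 0.198 in the PC9-NEO libraries against 0.267 in those of PC9-HOXC6.

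The other genes of the pathway were read from a list of 50, of which 41 were in the table. BCL2, BCL2L1, BCL2L15, BOK, NAIP, DIABLO, CYCS, DFFB and DDIT3 were not analysed here. In A549, 35 were tested, 6 rose and 7 fell, against 39.6% of all genes past the threshold in either direction. In PC9, 34 were tested, 3 rose and 4 fell, against 27.5% of all genes. Their median log2 fold change was -0.05 for A549 and -0.04 for PC9, against 0.00 over all genes.

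In A549-HOXC6, 1 of 1 effector gene outside the members fell, and of 12 death receptor genes 2 rose and 2 fell, against 18.9% of all genes higher and 20.7% lower. BAX, the effector next to BAK1 in function, fell by 0.40 on the log2 scale, from 408 ± 5.64 to 317 ± 17.8 CPM (SD, n = 3; adjusted p = 3.54e-04 with edgeR), and by 0.65 with the GC and length correction. The TRAIL receptors TNFRSF10B and TNFRSF10A fell by 0.72 and 0.62 (adjusted p = 1.12e-06 and 0.00577). In the other direction, the mitochondrial protease HTRA2, which antagonises IAPs, rose by 0.71, the initiator caspase CASP9 by 0.82, the kinase RIPK1 by 0.70 and the receptor TNFRSF1A by 0.31. CASP9 groups overlapped, and its adjusted p reached 0.0525 without A549-HOXC6 replicate 1. RIPK1 did not pass with DESeq2 (adjusted p = 0.0987) or without A549-NEO replicate 1 or 3 or A549-HOXC6 replicate 1 (log2 fold changes of 0.54, 0.67 and 0.57), and with the GC and length correction TNFRSF1A was at 0.04 and HTRA2 at 0.43.

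Among IAP genes outside the members, 1 of 3 rose and 2 of 3 fell in A549-HOXC6. Among the listed guardians and other BCL2 family genes, 1 of 4 rose and 1 of 4 fell. Both compare with the same 18.9% and 20.7% of all genes. The guardian BCL2A1 fell by 1.17 on the log2 scale (adjusted p = 0.00166 with edgeR) and the IAP genes BIRC7 and BIRC6 fell by 0.95 and 0.88 (adjusted p = 0.00384 and 4.60e-06, the former 0.0511 without A549-NEO replicate 3), while BIRC5 (survivin), a regulator of mitosis as well, rose by 0.75 (adjusted p = 2.63e-05). BCL2L12 rose by 0.52. USP9X, a deubiquitinase that stabilises MCL1 protein, fell by 1.07 (adjusted p = 1.16e-07) and by 0.53 with the GC and length correction. That correction also brought BIRC6 to -0.45 (adjusted p = 0.00132) and BCL2L12 to 0.24 (adjusted p = 0.0423).

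In PC9, BIRC6 fell by 0.83 on the log2 scale (adjusted p = 6.90e-07 with edgeR), USP9X by 0.61, the caspase 8 inhibitor CFLAR by 0.54 and BCL2L12 by 0.23. VDAC2, a mitochondrial channel that binds BAK1, rose by 0.42 (adjusted p = 1.47e-04). The BH3-only gene BMF rose by 0.45 (adjusted p = 0.0286) and FOXO3, a transcription factor of BH3-only genes, by 0.26 (adjusted p = 0.0324), but with DESeq2 their adjusted p was 0.117 and 0.109, and that of BCL2L12 was 0.0990. With a library left out, the adjusted p reached 0.132 for BMF (without PC9-NEO replicate 2 or PC9-HOXC6 replicate 2 or 3), 0.122 for FOXO3 (without PC9-NEO or PC9-HOXC6 replicate 1 or 2) and 0.175 for BCL2L12 (without PC9-NEO replicate 1 or 2 or PC9-HOXC6 replicate 2 or 3). With the GC and length correction, USP9X (adjusted p = 0.324), CFLAR (0.248) and BMF (0.150) did not pass in PC9, BIRC6 was at -0.47 (adjusted p = 0.00145) and BCL2L12 at -0.42 (adjusted p = 2.00e-04).

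For each member, genes among the 3 with the most similar pattern over the 12 libraries were listed by Pearson's correlation of log2(CPM + 1), among 9229 genes. These correlations describe points that share 2 lines and the same libraries. For BIRC3 they were ITGAV, GNAI1 and KPNB1 (r = 0.989, 0.988 and 0.988) and for BBC3 PRDM16, ALPK1 and ATXN2L (0.982, 0.974 and 0.974). For BAD they were SUMF1, MEN1 and TRIM28 (0.974, 0.959 and 0.953), for BIRC2 LYST and STX17 (0.960 and 0.936) and for BAK1 USP43, TNFSF13 and PRRG2 (0.958, 0.952 and 0.951). The members with small differences between groups had weaker neighbours, with highest r from 0.825 for PMAIP1 (ETFA) to 0.910 for MCL1 (ABI3BP). BID was closest to NCS1 (0.854), BCL2L11 to NDUFAF2 (0.856) and XIAP to ATXN7 (0.882). No member was among the 3 nearest genes of another.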

How the data were processed

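The authors isolated poly(A) RNA, prepared libraries with a directional NEBNext Ultra kit and sequenced paired reads of 150 bp. They aligned them with HISAT2 2.1.0 to GRCh37.p13 and counted them per gene with HTSeq 0.9.1 (tool versions from the submitters' processing notes). The deposited values are the authors' raw read counts, 1 column per library, without pooling. The annotation release and strand setting are not given in the sources used here. The table ends in 1 incomplete line, which was left out, so normalization and adjustment cover the 12584 complete genes, of which 12463 matched GENCODE v44lift37 for names, positions, length and GC content.

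Each line was fitted alone over its 6 libraries, and the interaction and the A549-NEO against PC9-NEO contrast over 12, after filterByExpr and TMM, by the quasi-likelihood F test of edgeR 4.0.16 in R 4.3.3. "Rose" and "fell" mean an adjusted p under 0.05. The F statistic and the fold change gave the standard error. CPM levels use TMM factors over 12 libraries, and 3 counts were the floor. Alternatives were DESeq2 1.42.0, RLE factors, library size only, no filter, at least 10 counts in every library, the replicate number as a block, a per-library correction for GC content and length (mgcv 1.9.3), both together, one model over 12 libraries, the fold criterion, and each library left out. The tests were checked on simulated counts. Named genes were the 10 members, the other apoptosis genes past the threshold (up to 4 per sublist and comparison) and the 3 nearest patterns of each member. The members and lists were chosen with earlier results of these data known. Promoter windows are from RefSeq (GRCh38.p14), where 9 of 10 members had an entry. MCL1 had none. Some items of these lists are not reported here and were left out of the counts of the apoptosis list.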

Additional observations from a re-analysis of the deposited data

Results flagged for a closer look

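Each gene here had a HOXC6 effect that differed between A549 and PC9 by edgeR's interaction term (adjusted p under 0.05), and each value is the log2 effect in A549 minus that in PC9. The number to compare with is 19.4% of all 9229 genes tested.

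Among the members these were BBC3, at -1.30 (adjusted p = 8.30e-06), where A549 changed by -0.94 and PC9 by 0.40, and BIRC3, at -0.99 (adjusted p = 0.0295), with -1.49 and -0.46. The BIRC3 difference missed the threshold in 7 of 12 fits when a library was dropped. Among the other apoptosis genes, BCL2L12 was at 0.80, with 0.52 in A549 and -0.23 in PC9, where it did not pass with DESeq2 (adjusted p = 0.0990). HTRA2 was at 0.88, BIRC5 at 0.88 and RIPK1 at 1.15, with log2 fold changes in A549 of 0.71, 0.75 and 0.70. In PC9 they were at -0.12, -0.09 and -0.39, and none of these passed in the uncorrected edgeR fit. RIPK1 had an interval of -0.73 to -0.06 there (adjusted p = 0.0764), and it passed with the GC and length correction (-0.48, adjusted p = 0.0365). TNFRSF10B was at -0.79, with -0.72 in A549 and 0.12 in PC9 (95% interval -0.10 to 0.34).

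As for BIRC3, the call on 4 other genes was lost without single libraries. BIRC7 was at -1.84 (adjusted p = 0.0420, with DESeq2 0.0615), it was too low to be tested within PC9, and it missed the threshold in 7 of 12 fits with a library left out. TNFRSF1A was at 0.35 (adjusted p = 0.0318, with DESeq2 0.0736, with the GC and length correction 0.158) and also missed it in 7 of 12. FOXO3 was at -0.59 and missed it in 4 of 12, and VDAC2 was at -0.38 and missed it in 3 of 12.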

How the results depend on the processing

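Of the counts of members called, the 2 lower between the control groups stayed the same under each alternative except the fold criterion. That criterion kept BAD (-1.08) and not BAK1 (-0.82). The 3 lower in A549 became 2 with the GC and length correction, alone or with the replicate block, and with the fold criterion. The 2 higher between the control groups became 3 with no filter, the replicate block, the GC correction or both, and 2 to 3 with a library left out. The 1 higher in A549 (BAD) became 2 with the GC and length correction plus replicate block, 0 with the fold criterion and 0 to 1 with a library left out. The 1 higher in PC9 (BBC3) became 0 with library size only, DESeq2, one model over 12 libraries or the fold criterion, 2 with no filter, the replicate block or that block plus the GC correction, and 0 to 2 with a library left out. With the GC and length correction alone this count stayed 1, but the member changed. BBC3 did not pass (0.19, adjusted p = 0.377 with edgeR) and XIAP did (0.48, adjusted p = 0.00855). The 0 lower in PC9 became 1 with library size only. For the difference between the lines, the 0 higher became 1 (BAD) with no filter, the replicate block, the GC correction or both, and 0 to 1 with a library left out, and the 2 lower became 1 to 2. The replicate block added BID in PC9 (0.31, adjusted p = 0.0416) and PMAIP1 between the controls (0.60, adjusted p = 0.0450). The cause was not tested.

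Signs turned only for members that did not pass in the fit reported. With the GC and length correction, alone and with the block, these were in A549 BAK1 (-0.10 and -0.08), PMAIP1 (0.21 and 0.19) and XIAP (0.35 and 0.39), and in PC9 BAK1 (-0.13 and -0.13), BAD (-0.09 and -0.09), PMAIP1 (0.52 and 0.62), BIRC2 (0.06 and 0.03), BIRC3 (0.19 and 0.19), XIAP (0.48 and 0.47) and, alone, MCL1 (0.02). Between the controls they were BID (-0.01 and -0.01, and -0.07 with library size only) and XIAP (0.03 with RLE, 0.00 with no filter, 0.03 with DESeq2). In PC9, BAK1 was at -0.03 with library size only and PMAIP1 at 0.08 with the block. With a library left out, PC9 values ran from -0.09 to 0.08 for MCL1, -0.02 to 0.18 for BAK1, -0.45 to 0.30 for PMAIP1 and -0.08 to 0.06 for XIAP. In A549 BCL2L11 ran from -0.05 to 0.36. Differences between the lines ran from -0.15 to 0.02 for MCL1, -0.34 to 0.05 for BCL2L11, -0.15 to 0.08 for BID and -0.60 to 0.15 for PMAIP1, and between the controls from -0.10 to 0.09 for BID and -0.16 to 0.09 for XIAP.

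Correlations of same-numbered deviations from group means ran from -0.0319 to 0.0634 in A549 and -0.00916 to 0.0884 in PC9. For libraries of different number they ran from -0.0959 to 0.109 in A549 and -0.0637 to 0.0381 in PC9. With 3 libraries a group, these correlations cannot decide whether replicate numbers pair the libraries. Over all genes, DESeq2 called 745 higher and 775 lower in PC9 against 1123 and 1193 with edgeR, and 663 higher against 1010 for the difference between the lines. The fold criterion left 149 higher and 483 lower of 1657 and 1812 in A549, and 81 and 300 in PC9. Depth limits PMAIP1 and, in PC9, BIRC3, where single libraries held 12 and 13 counts.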

Other observations

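A549-HOXC6 replicate 3 was the highest or lowest library of its group for 10 of 10 members, against 74.7% of the 9229 genes tested. For the other 11 libraries this count ran from 4 to 8 of 10, against 58.6 to 69.2% of all genes. Its BAD level of 87.9 CPM was above both other libraries of its group (55.2 and 42.6), and its BIRC3 level of 27.7 CPM was below both (44.2 and 39.2).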
